A study of Mus musculus with 12 samples.

Results

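The 56 genes described here encode the proteins that copy DNA, together with 5 E2F transcription factors known for controlling them. They were taken by name from a list of replication, replication-linked chromatin, replication checkpoint and E2F genes, and all 56 of 56 were found among the 11022 genes of the expression table. Messenger RNA was measured in 12 cultures of P14 cytotoxic T lymphocytes (CTL), which are CD8+ effector T cells from mice that carry a transgenic T cell receptor (TCR) for the gp33-41 peptide of lymphocytic choriomeningitis virus. Lymph node or spleen cells of female mice aged 9 to 13 weeks were activated for 48 h with peptide in the presence of IL-12 (2 ng/ml) and IL-2, and then grown for 5 days in IL-2. On day 7 the CTL rested for 1 h and formed 4 groups of 3 replicates, all kept in 20 ng/ml IL-2. Unstimulated CTL received no peptide, and the TCR group received 100 ng/ml gp33-41 for 4 h. The TCR + PI3Kdi group received the same peptide with 10 µM IC87114, an inhibitor of the p110δ catalytic subunit of phosphoinositide 3-kinase (PI3K). The TCR + MEKi group received it with 2 µM PD184252, an inhibitor of MEK1/2, the kinases that activate ERK1/2, and the study names DMSO as its vehicle. No group analysed here received an inhibitor without peptide, the cultures came from 3 mice, and every culture carried the same transgenic TCR.

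Replication starts in 2 separate steps, and the genes are ordered by them below. In licensing, the origin recognition complex (ORC), CDC6 and CDT1 load the MCM2-7 helicase onto DNA, and geminin blocks CDT1 so that an origin is used once per cycle. In firing, the kinase CDC7 with DBF4 and a set of factors that includes CDC45 and the GINS complex turn the loaded helicase into a moving fork, where polymerases α, δ and ε work with the PCNA clamp and its loader RFC. Many of these genes are textbook targets of E2F factors, whose activity rises as a cell commits to S phase. The study expanded its CTL in IL-2, and these genes were expressed before the TCR was triggered. Cell division is not measured by the values used here.

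The sites that E2F proteins are known to bind can be read in the gene starts, and the matching words of the described members are shown so that these genes can be compared by sequence; a match is no evidence of binding. RefSeq promoter sequences (GRCm38.p6, the mm10 coordinates that the deposited table was built on) of 250 bases before and 50 bases after a gene start were matched to 46 of the 56 genes. The words TTTGGCGC, TTTGCCGC, TTTCGCGC and TTTCCCGC were searched on both strands, and overlapping words were counted each. At least 1 word was present in 20 of the 46 genes (43.5%), beside 4.95% of 8286 other genes of the table and 2.60% of all 27025 genes with such a sequence. Counted per promoter of equal length, the shares were 33.9% of 59, 4.11% of 10557 and 2.26% of 32851. In the lines below the capitals mark these words, each sequence runs 5′ to 3′ on the strand of its gene, and the position of the first word is counted from the annotated start (+1). For Cdc6, Mcm7 and Brca2 the start used lies inside the RefSeq gene, so the word shown precedes that start but lies within the gene.
Mcm6, chr1:128359731-128359830, minus strand, first of 3 words at -110, before the start: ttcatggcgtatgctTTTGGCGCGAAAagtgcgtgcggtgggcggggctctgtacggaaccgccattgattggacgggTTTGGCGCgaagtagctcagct
E2f7, chr10:110745215-110745274, plus strand, -198, before the start: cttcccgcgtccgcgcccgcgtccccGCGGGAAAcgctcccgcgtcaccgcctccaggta
Cdc6, chr11:98908002-98908031, plus strand, -138: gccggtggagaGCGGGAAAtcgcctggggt
Mcm7, chr5:138172030-138172059, minus strand, first of 2 words at -165, in an exon shared with Ap4m1: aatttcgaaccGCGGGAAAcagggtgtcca
Gins3, chr8:95633507-95633536, plus strand, -41, in an exon of a longer Gins3 transcript: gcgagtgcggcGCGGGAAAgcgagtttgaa
Pold1, chr7:44548766-44548795, minus strand, +40, in the first exon: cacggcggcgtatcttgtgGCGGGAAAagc
Lig1, chr7:13278841-13278870, plus strand, +27 of an alternative start, in an exon: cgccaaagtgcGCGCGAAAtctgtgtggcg
Uhrf1, chr17:56304117-56304146, plus strand, -185 of an alternative start: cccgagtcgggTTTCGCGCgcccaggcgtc
E2f2, chr4:136172294-136172323, plus strand, +40: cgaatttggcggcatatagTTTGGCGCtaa
E2f3, chr13:29986056-29986085, minus strand, -11: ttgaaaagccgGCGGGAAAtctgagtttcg
Brca2, chr5:150522442-150522471, plus strand, -168: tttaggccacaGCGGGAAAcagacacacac
No such word was in the windows of Chaf1b, E2f1, E2f8, Rpa1, Orc2 or Pold2, which says only that these letters are absent there.

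Values are FPKM, that is sequenced fragments relative to the exon length of a gene and the depth of its library, which the authors scaled between libraries with the TMM method, a trimmed mean of log ratios. Replicates of a group correlated at r = 0.992 to 0.995 across genes. Depths chosen so that low values came nearest to whole fragments were about 7720000 to 13170000 counted fragments per library, a rough figure that was not tested. At these depths the least covered member, E2f2, rested on about 50 to 579 fragments per library. Of the CD8 T cell markers, 7 of 8 were listed, with summed levels of 10100 to 16400 FPKM. Most of the sum came from Gzmb, at 8279.09 to 13581.54 FPKM, while Cd8a lay between 212.73 and 430.34. With TCR triggering the log2 changes were 0.70 for Cd8a, 0.52 for Cd8b1, 0.58 for Gzmb and 1.17 for Prf1. They were 0.01 for Cd3d, -0.17 for Cd3e and -0.33 for Cd3g. Cd4 lay between 0.28 and 3.65 FPKM. Cd40lg, the other CD4 T cell marker listed, went from 1.5, 0.84 and 1.14 FPKM in unstimulated to 112.74, 110.33 and 112.17 in TCR samples and was 45.03 to 49.97 with PI3Kdi and 36.43 to 42.64 with MEKi. None of the 15 markers of B cells, myeloid cells and erythroid cells was in the table. Of NK markers 2 of 3 were listed, at a sum of 74.7 to 83.6 FPKM in unstimulated, 108 to 114 in TCR, 112 to 117 in PI3Kdi and 73.2 to 82.0 in MEKi samples, nearly all from Eomes, while Klrb1c went from 4.58 to 6.23 FPKM in unstimulated to 1.63 to 1.88 in TCR samples. Of dendritic cell markers 2 of 5 were listed, at 19.0 to 23.4, 60.2 to 72.4, 44.3 to 68.4 and 103 to 119 FPKM, nearly all from Batf3, and the part of any of these in the results was not tested. A difference is called here when limma, a moderated linear model on log2(FPKM + 0.1), gave a Benjamini-Hochberg adjusted p under 0.05 over all 11022 genes and a change of more than 2-fold. In bulk RNA, fewer cells in S phase and less of each mRNA per cell cannot be told apart.

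TCR triggering for 4 h lowered nearly the whole replication programme. Of the 56 genes, 40 (71.4%) were called lower and 0 higher, beside 11.1% of all genes called lower and 8.87% called higher. At any size of change 54 of 56 were lower at an adjusted p under 0.05 (34.9% of all genes) and 0 were higher by the adjusted or the unadjusted p (33.6% of all genes were higher). Orc2 and Pold2 were the exceptions, and on a common FPKM sum for every library these also were lower (adjusted p = 1.04e-05 and 3.36e-05). The median log2 change of the 56 was -1.20, beside -0.01 for all genes, and 54 of 56 genes had all 3 TCR samples below all 3 unstimulated samples, as had 36.5% of all genes. Taking the level in unstimulated CTL as 100%, the median member stood at 40.8%, 43.4% and 43.7% in the 3 TCR samples. Summed over the 56 genes, the level was 2300 to 2380 FPKM in unstimulated CTL and 1070 to 1110 FPKM after triggering. Rescaling every library to one FPKM sum moved the median of all genes to -0.41 and the calls over all genes from 1224 lower and 978 higher to 2276 lower and 647 higher. With a pseudocount of 1, 33 of the 56 were called, and the calls of Cdt1, Gins2, Cdc7, Pola1, Rfc1, Brca2 and Timeless were lost. Relative to the median of all genes the 56 stood at -1.19 with the deposited scaling, at -1.20 on that common scale and at -1.17 after quantile normalisation.

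**Figure D1:**
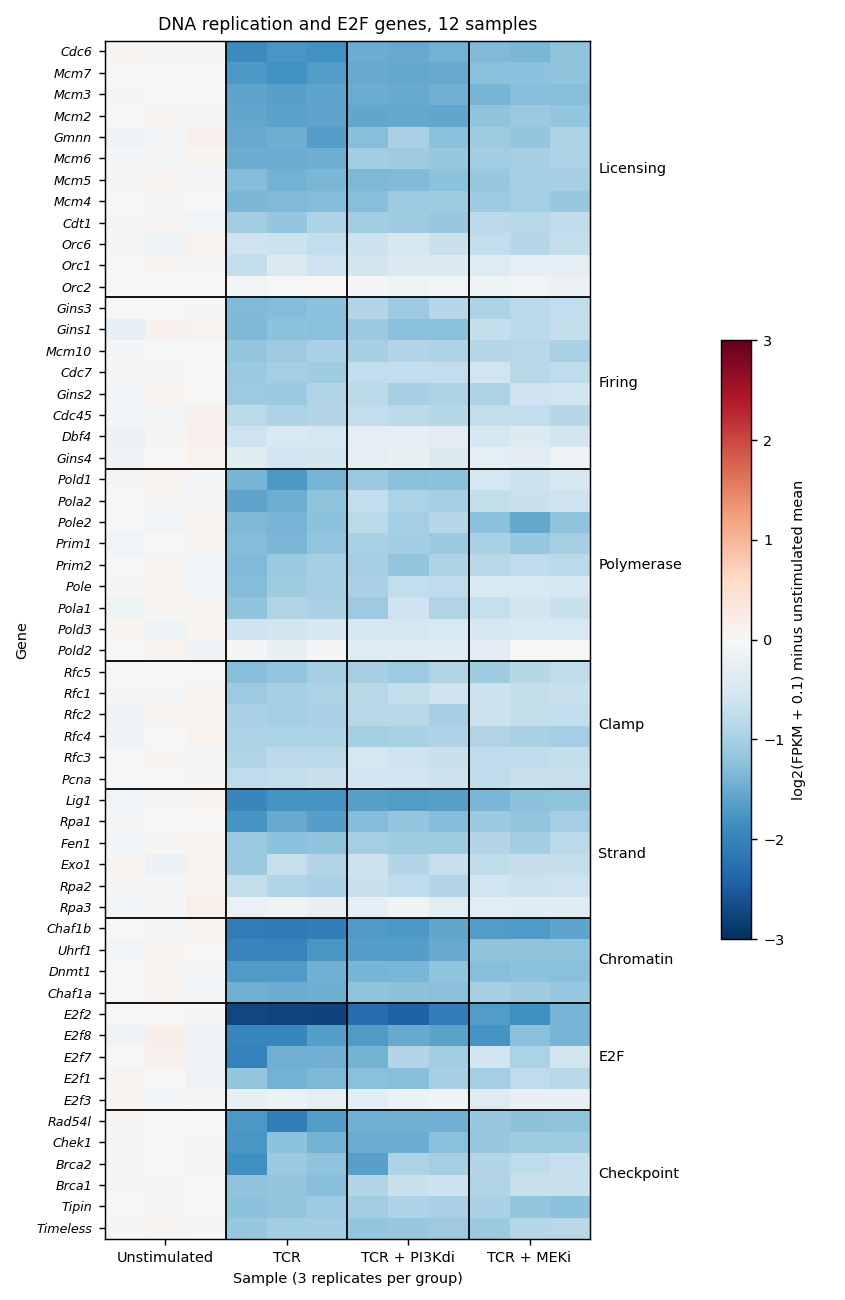
Heatmap of the 56 genes (rows, grouped by role) in the 12 samples (columns, 3 per group), coloured by log2(FPKM + 0.1) minus the mean of the 3 unstimulated samples. Blue fills nearly every row of the 9 peptide-treated samples, darkest for E2f2, whereas Orc2, Pold2, Rpa3 and E2f3 stay pale; the MEKi columns are paler than the TCR columns in most rows.

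Among the E2F genes of the 56, 4 of 5 were called lower. E2f1, E2f2 and E2f3 encode activators of S phase genes, and E2f7 and E2f8 encode atypical family members that repress them. E2f2 was 8.78, 8.77 and 9.0 FPKM in the unstimulated samples, 1.25, 1.23 and 1.21 after TCR triggering, 1.73, 1.56 and 2.04 with PI3Kdi and 2.70, 2.38 and 3.32 with MEKi. None of the 4 groups overlapped another, and the 3 TCR samples were the lowest of all. The E2f2 change with TCR triggering was -2.75 ± 0.13 (log2, SE, limma adjusted p = 1.18e-10), that is 6.73-fold lower and the largest among the 56. E2f8 fell from 16.57, 20.53 and 16.47 to 4.50, 4.50 and 5.61 FPKM (log2 change -1.85 ± 0.13). E2f7 was the sparsest of the 5, at 3.69, 3.98 and 3.31 FPKM before and 0.82, 1.27 and 1.28 after triggering (-1.64 ± 0.19). E2f1 went from 23.45, 22.34 and 20.33 to 9.58, 8.23 and 8.58 FPKM (-1.32 ± 0.10). Thus the activators E2f1 and E2f2 and the repressors E2f7 and E2f8 all fell, and no unstimulated sample overlapped a TCR sample. E2f3 moved far less, from 11.06, 10.14 and 10.89 to 8.65, 9.43 and 8.82 FPKM, a change of -0.25 ± 0.08 with an adjusted p of 0.0136. The order of these 5 genes by level per length changed with it. E2f1 led in unstimulated CTL at 22.0 FPKM, with a range that overlapped that of E2f8. After triggering E2f3 at 8.97 and E2f1 at 8.80 FPKM overlapped, and E2f8 lay below both. E2f4, a family member outside the 56, lay above all 5, at a mean of 123 FPKM in unstimulated and 102 in TCR samples. E2f7 had the lowest mean of the 5 in each of the 4 groups, and E2f2 overlapped it in the 3 peptide-treated groups. Family members outside the 56 did not all fall with TCR triggering. E2f4 (-0.28 ± 0.06) and E2f6 (-0.61 ± 0.08) were lower without reaching 2-fold. E2f5 was higher, also without reaching 2-fold (0.81 ± 0.10, limma adjusted p = 3.22e-06). Part of the E2f8 exons, 5.53% of its 100-base stretches, is shared with Gm2788 on the opposite strand.

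**Figure D2:**
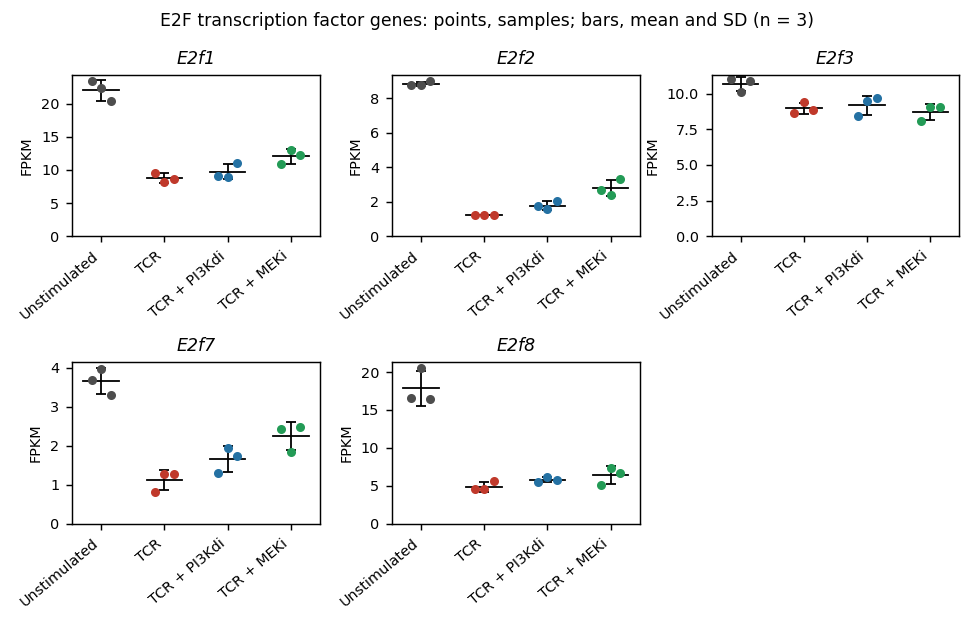
FPKM of the 5 E2F genes in each of the 12 samples (points), with the mean and SD of the 3 replicates (bars), by group; each vertical axis starts at 0. For E2f2 the 3 TCR samples lie between 1.21 and 1.25 FPKM and the 3 MEKi samples between 2.38 and 3.32, whereas E2f3 stays between 8.09 and 11.06 in all 12.

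Licensing genes gave 9 of 12 called lower with a median log2 change of -1.42. Cdc6, the loader that meets ORC at the origin and carries an E2F word, fell from 16.42, 15.18 and 15.35 to 4.08, 4.61 and 4.38 FPKM, which was 3.54-fold (-1.82 ± 0.08, adjusted p = 5.15e-11). Its partner Cdt1 fell less, from 32.1 ± 1.43 to 15.6 ± 1.25 FPKM (SD, n = 3), and Gmnn, which encodes the CDT1 inhibitor geminin, fell from 60.6 ± 5.02 to 20.8 ± 1.26 FPKM. All 6 helicase genes were called, with changes from -1.34 for Mcm4 to -1.74 for Mcm7. Mcm7 was 106.47, 107.72 and 108.25 FPKM in unstimulated and 32.59, 30.61 and 33.45 in TCR samples. Mcm6, the most abundant helicase gene and one of the 3 highest of the 56, was 121.91, 123.72 and 135.17 FPKM against 45.33, 44.97 and 45.94. The 6 subunits, which act in equal numbers in one ring, differed little in mRNA level: the highest was 1.59 times the lowest in unstimulated CTL, 1.56 times after triggering, 2.01 times with PI3Kdi and 1.70 times with MEKi, and Mcm6 led in all 4 groups.

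**Figure D3:**
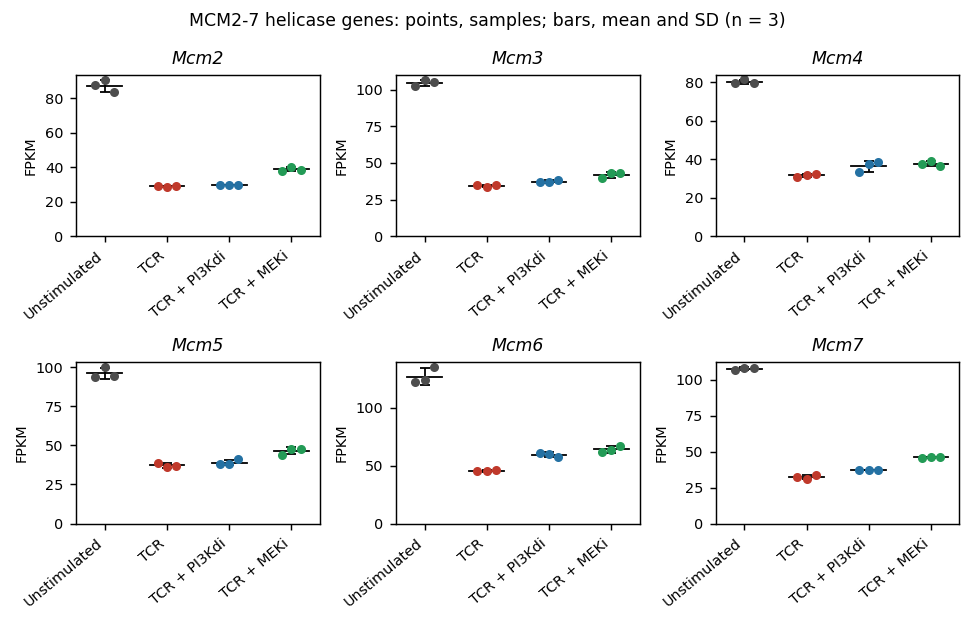
FPKM of the 6 MCM2-7 genes in each of the 12 samples (points), with the mean and SD of 3 replicates (bars); each vertical axis starts at 0. All unstimulated samples lie above 79 FPKM and all TCR samples below 46, and for all 6 genes the 3 MEKi samples lie above the 3 TCR samples.

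The ORC subunits were uneven. Orc2 was level, at 32.83, 32.86 and 32.71 FPKM in unstimulated and 30.83, 32.90 and 32.61 in TCR samples, and the groups overlapped (-0.03 ± 0.05, adjusted p = 0.615). On the common FPKM sum the change of Orc2 was -0.44, close to the shift of all genes. Orc1, an ATPase subunit of the complex, fell from 12.9 ± 0.416 to 8.55 ± 0.949 FPKM, and Orc6 from 35.8 ± 3.16 to 22.5 ± 1.14; both passed the adjusted p but not 2-fold. Orc6 and Orc2 overlapped in unstimulated CTL, and Orc2 was the highest of the 3 in each peptide-treated group. The other subunits, outside the 56, were named after their values were seen: Orc5 was called lower (10.21, 10.43 and 12 against 4.48, 5.19 and 5.5 FPKM, -1.09 ± 0.11) and Orc3 was lower without reaching 2-fold (-0.55 ± 0.08). Orc4 was higher (8.68, 8.48 and 9.64 against 11.14, 14 and 11.61 FPKM, 0.45 ± 0.10, adjusted p = 0.000792), but not on the common FPKM sum (0.04, adjusted p = 0.765). For Orc2, 23.6% of its 100-base stretches are shared with the opposite-strand gene Nif3l1, and the sources used here do not say if strand entered the counting.

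Of the 8 firing genes 5 were called lower (median -1.05). The GINS complex, which joins CDC45 and the helicase, was uneven. Gins3 fell from 7.75, 7.79 and 8.06 to 3.06, 3.13 and 3.30 FPKM (-1.29 ± 0.10) and Gins1 from 12.52, 16.30 and 16.11 to 5.75, 6.26 and 6.16 (-1.28 ± 0.10). Gins4 moved the least of the 8, from 24.41, 25.81 and 28.10 to 20.36, 17.50 and 17.87 FPKM (-0.49 ± 0.08, adjusted p = 6.72e-05), with no overlap between the groups. The highest GINS gene by mean was Gins2 before and Gins4 after triggering. It stood at 3.61 times the lowest, Gins3, before and at 5.87 times Gins3 after. Between the 2 subunits of the CDC7 kinase, Cdc7 was called (-1.06 ± 0.08) and its activator Dbf4 was not (-0.53 ± 0.08, adjusted p = 2.52e-05). For Gins2, also called, 64.1% of stretches are shared with Gse1 on the opposite strand.

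Of the 9 polymerase genes 7 were called lower, at a median of -1.14. Pold1, the catalytic subunit of polymerase δ, fell from 27.33, 30.56 and 26.99 to 10.66, 8.53 and 10.63 FPKM (-1.51 ± 0.09, adjusted p = 1.25e-09). Pola2, an accessory subunit of polymerase α, which starts each new strand with primase, fell from 25.48, 26.25 and 24.91 to 8.49, 9.12 and 11.01 (-1.42 ± 0.09). By contrast Pold2, the second subunit of polymerase δ, was 43.75, 47.42 and 40.51 FPKM before and 42.65, 37.61 and 41.74 after, and the groups overlapped (-0.11 ± 0.08, adjusted p = 0.256). Pold2 was 2.14 times the lowest polymerase δ gene, Pold3, in unstimulated CTL. After triggering the lowest was Pold1, and Pold2 was 4.09 times that gene. On the common FPKM sum Pold2 changed by -0.52, and after quantile normalisation by -0.20 (adjusted p = 0.0474).

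The clamp and its loader were the most even role and fell the least, with 2 of 6 called and changes between -0.72 and -1.15. Pcna, the sliding clamp and the most abundant of the 56, was 293.91, 295.96 and 304.70 FPKM in unstimulated and 177.16, 177.34 and 188.97 in TCR samples (-0.72 ± 0.05, adjusted p = 4.73e-09), a fall that did not reach 2-fold. With other scalings it did, at -1.13 on the common FPKM sum and -1.01 after quantile normalisation. In the RFC loader, Rfc5 (-1.15 ± 0.08) and the large subunit Rfc1 (-1.01 ± 0.07) were called. The Rfc1 call was lost without unstimulated replicate 3 or without TCR replicate 1, at -0.97 each, with a pseudocount of 1 (-0.95) and after quantile normalisation (-0.99). The 5 RFC genes kept the same order in all 4 groups, namely Rfc3, Rfc2, Rfc5, Rfc4 and Rfc1, with no overlap between neighbours. Pcna shares 10.1% of its stretches with the pseudogene Pcna-ps2.

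Genes that finish and protect the new strands gave 3 of 6 called lower. Lig1, the ligase that joins Okazaki fragments, fell from 44.33, 48.33 and 49.16 to 12, 13.77 and 13.82 FPKM, or 3.57-fold (-1.83 ± 0.07, adjusted p = 9.88e-12). Subunits of RPA, the complex that coats single-stranded DNA, parted from one another. Rpa1 fell from 76.03, 78.28 and 78.85 to 22.80, 27.25 and 24.69 FPKM (-1.64 ± 0.07), while Rpa3 went from 42.57, 43.00 and 49.93 to 39.36, 40.58 and 38.04 (-0.20 ± 0.07, adjusted p = 0.0209). Rpa1 was thus the highest of the 3 before and Rpa3 the highest after triggering. Fen1, called at -1.18, shares 71.9% of its stretches with the opposite-strand gene Gm10143.

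Chromatin genes that follow the fork had the lowest median of the 8 roles, at -1.76, and all 4 were called. Chaf1b encodes a subunit of CAF-1, which deposits histones on new DNA, and it dropped from 24.53, 23.67 and 26.30 to 5.73, 5.63 and 5.86 FPKM, 4.27-fold (-2.09 ± 0.08, adjusted p = 4.36e-12). Uhrf1, which brings the maintenance methylase to new DNA, fell from 59.97, 67.57 and 63.72 to 16.11, 15.73 and 18.88 (-1.91 ± 0.07). Dnmt1, the methylase itself, fell from 59.5 ± 3.02 to 19.4 ± 2.01 FPKM. Chaf1a had the smallest change of the 4 at -1.46 ± 0.07 (26.24, 27.89 and 25.04 against 9.70, 9.32 and 9.49 FPKM), and both CAF-1 genes, which overlapped in unstimulated CTL, were apart after triggering. Opposite-strand Ubxn6 shares 46.7% of the stretches of Chaf1a.

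All 6 checkpoint and fork repair members were called lower (median -1.30). Rad54l, a motor protein of homologous recombination, fell from 12.88, 12.60 and 12.46 to 3.77, 2.91 and 3.91 FPKM (-1.82 ± 0.10). Chek1, the kinase of the replication checkpoint, went from 9.23, 9.54 and 9.84 to 2.75, 4.03 and 3.48 (-1.47 ± 0.12). Brca2, a gene of homologous recombination with the lowest mean of the 56, was 2.90, 2.95 and 3.06 against 0.76, 1.33 and 1.23 FPKM (-1.38 ± 0.21, adjusted p = 2.70e-05). Timeless and Tipin encode partners that steady the fork. Tipin, one of the 3 most abundant, fell from 94.12, 89.97 and 94.28 to 39.78, 40.60 and 43.70 (-1.16 ± 0.07) and Timeless from 14.04, 15.06 and 13.94 to 6.47, 6.94 and 6.96 (-1.07 ± 0.09). With a pseudocount of 1 the calls of Brca2 (-0.92) and Timeless (-0.98) were lost.

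**Figure D4:**
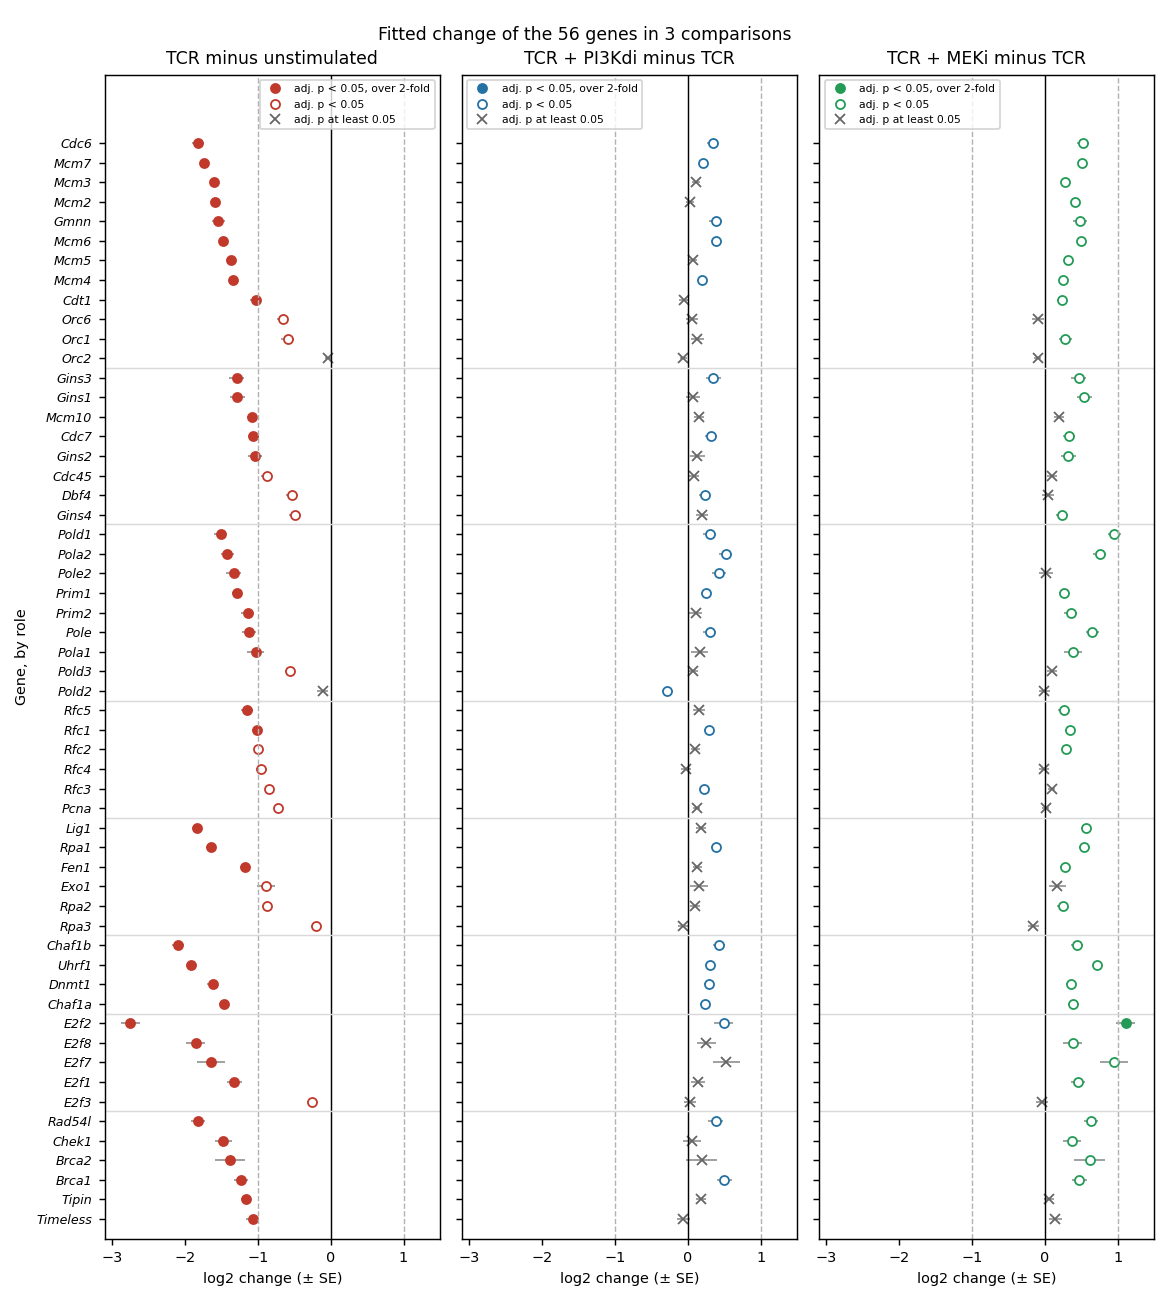
Fitted log2 change (points, with SE as bars) of each of the 56 genes, by role, for TCR minus unstimulated, TCR + PI3Kdi minus TCR and TCR + MEKi minus TCR. Filled points passed the adjusted p and 2-fold (40, 0 and 1 genes), open points the adjusted p alone, and crosses neither; dashed lines mark 2-fold.

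With PI3K p110δ blocked during triggering, the genes stood slightly higher than with TCR alone, and no member changed by 2-fold. By limma, 0 of 56 were called in either direction (1.38% of all genes were called lower and 0.499% higher), and 0 passed 2-fold at an unadjusted p under 0.05. At any size 23 of 56 (41.1%) were higher at an adjusted p under 0.05, beside 12.7% of all genes, and 1 was lower, beside 12.8%. Unadjusted, 29 were higher and 1 lower. On the common FPKM sum 44 were higher and 0 lower, at a median of 0.36, with the median of all genes at 0.19. The median log2 change was 0.18 (0.02 for all genes), and in 30 genes all 3 inhibitor samples lay above all 3 TCR samples, as in 19.0% of all genes. The median member stood at 48.9 to 50.1% of its unstimulated level. Every chromatin gene was higher: Chaf1b was 7.63, 7.39 and 8.37 FPKM with the inhibitor against 5.73, 5.63 and 5.86 without (0.43 ± 0.08, adjusted p = 0.000855). Pola2, at 15.25, 13.18 and 12.72 FPKM, was 0.52 ± 0.09 above TCR alone, and E2f2 was 0.49 ± 0.13 above it (adjusted p = 0.0149). Of the helicase genes Mcm6 rose most, to 61.04, 60.27 and 57.52 FPKM (0.39 ± 0.05, adjusted p = 0.000123), while Mcm2 at 29.60, 29.83 and 29.69 lay close to its level with TCR alone (0.03 ± 0.05, adjusted p = 0.715). Pold2 was the 1 gene that was lower, at 33.22, 33.48 and 33.59 FPKM against 42.65, 37.61 and 41.74 (-0.28 ± 0.08, adjusted p = 0.0228). That difference did not pass on the common FPKM sum (-0.10, adjusted p = 0.363) or after quantile normalisation (-0.21, adjusted p = 0.0857).

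With MEK blocked during triggering, 1 gene passed 2-fold and most of the others were higher than with TCR alone. E2f2 was called higher (1 of 56, beside 0.980% of all genes), at 2.70, 2.38 and 3.32 FPKM against 1.25, 1.23 and 1.21 (1.11 ± 0.13, adjusted p = 1.90e-05). The call was lost without TCR + MEKi replicate 3, at 0.99, and with a pseudocount of 1, at 0.76, while on the common FPKM sum 4 genes were called higher (E2f2, Pola2, Pold1 and E2f7). No member was called lower (2.51% of all genes were; 0 members passed 2-fold lower unadjusted). At any size 40 of 56 (71.4%) were higher, beside 18.9% of all genes, and 0 were lower, beside 18.2% (1 at an unadjusted p under 0.05). The median change was 0.33 (0.01 for all genes), and 38 genes had all MEKi samples above all TCR samples, as had 24.6% of all genes. The median member stood at 53.1 to 57.7% of its unstimulated level. Pold1 and E2f7 followed E2f2. Pold1 was 19.56, 17.98 and 20.16 FPKM against 10.66, 8.53 and 10.63 (0.95 ± 0.09, adjusted p = 1.80e-06). E2f7, at 2.43, 1.83 and 2.48 FPKM, was 0.95 ± 0.19 above TCR alone, Pola2 0.75 ± 0.09 and Uhrf1, at 27.41, 27.71 and 27.66 FPKM, 0.71 ± 0.07. In all of these the MEKi and TCR samples did not overlap. Lig1 (0.56 ± 0.07), Rpa1 (0.54 ± 0.07), Gins1 (0.54 ± 0.10), Cdc6 (0.52 ± 0.08), Mcm7 (0.51 ± 0.05) and Rad54l (0.63 ± 0.10) were also higher. Pcna was 176.46, 187.70 and 183.19 FPKM with MEKi, overlapping the TCR samples (0.01 ± 0.05, adjusted p = 0.890; 0.27 with an adjusted p of 0.000365 on the common FPKM sum), and Pole2 at 5.95 ± 0.726 FPKM lay level with 5.90 ± 0.376.

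Compared directly, the 2 inhibitor groups differed in part of the genes. Neither direction held a call (0 of 56 by limma, beside 1.71% of all genes lower and 1.39% higher with MEKi, and 0 past 2-fold unadjusted). At any size 14 of 56 (25%) were higher with MEKi than with PI3Kdi, beside 14.5% of all genes, and 1 was lower, beside 14.4%; unadjusted these were 23 and 4, and on the common FPKM sum 25 and 1. Pold1 differed most (0.65 ± 0.09, adjusted p = 8.26e-05), followed by E2f2 (0.62 ± 0.13, adjusted p = 0.00276) and Gins1 (0.47 ± 0.10, adjusted p = 0.00253). Among the 14 were 4 helicase genes, namely Mcm2 (0.39), Mcm7 (0.30), Mcm5 (0.25) and Mcm3 (0.17), whereas Mcm6 (0.10 ± 0.05) and Mcm4 (0.06 ± 0.06) did not pass. The other members of the 14 were Cdt1, Pold2, Pole, Rfc2, Lig1, Uhrf1 and E2f1. Pole2, the small subunit of polymerase ε, went the other way: it was 8.49, 7.27 and 8.15 FPKM with PI3Kdi and 6.29, 5.12 and 6.45 with MEKi (-0.42 ± 0.10, adjusted p = 0.00542), while Pole, the catalytic subunit, was 7.48 ± 0.624 with PI3Kdi and 9.55 ± 0.219 with MEKi.

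Both inhibitor groups nevertheless remained far below unstimulated CTL. With PI3Kdi 28 of 56 (50.0%) were called lower than unstimulated, beside 7.43% of all genes, and with MEKi 20 of 56 (35.7%), beside 6.46%. At any size 55 of 56 were lower in each, beside 30.8% and 30.7% of all genes. The median log2 changes were -1.01 and -0.82. All comparisons in this paragraph share the unstimulated samples, and both of those with TCR alone share the TCR samples. The lowest share of the unstimulated level was that of E2f2 with PI3Kdi, at 20.1%, and that of Chaf1b and E2f2 with MEKi, at 31.6% each.

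**Figure D5:**
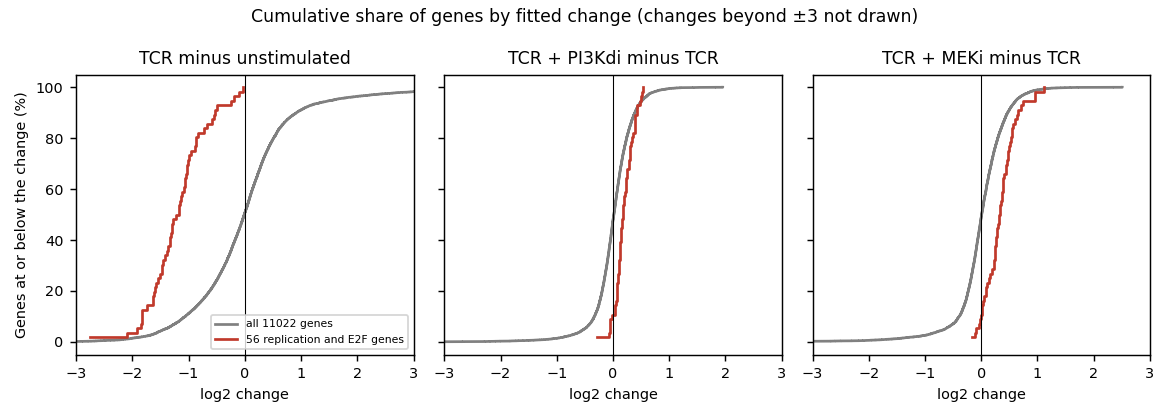
Cumulative share of genes (vertical axis, %) at or below a given fitted log2 change (horizontal axis) for all 11022 genes (grey) and the 56 genes (red), in 3 comparisons. The red curve lies left of 0 throughout for TCR minus unstimulated (median -1.20) and to the right of the grey curve over most of its length for both inhibitors (medians 0.18 and 0.33).

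Promoter words and change can be set side by side as a description. The 20 genes with an E2F word had a median change with TCR triggering of -1.43 (range -2.75 to -0.25), with 16 called. The 26 genes without one had a median of -1.11 (range -2.09 to -0.03), with 17 called, and the ranges overlap almost entirely. A second set of E2F words, GGCGGGAA and GGCGCGAA, was not used for this split. Some of the 26 hold one of these, among them Chaf1a and Chek1. E2f3, whose word lies 11 bases before its start, fell by 0.25, and Chaf1b, which holds none, fell by 2.09.

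Replication genes outside the 56 moved the same way in most cases. Of 49 further genes listed for origin, fork, nucleotide supply and S phase functions, 45 were in the table. After TCR triggering 20 of these were called lower and 1 higher (median -0.93), beside 11.1% and 8.87% of all genes. At any size 36 were lower and 3 higher, beside 34.9% and 33.6% of all genes. Clspn, a mediator of the replication checkpoint, fell from 19.77, 19.73 and 21.13 to 3.89, 4.73 and 4.28 FPKM (-2.21 ± 0.09). Tonsl, which protects stalled forks, fell from 8.28, 9.26 and 8.72 to 2.22, 1.77 and 2.18 (-2.04 ± 0.12), and Rrm2, a subunit of ribonucleotide reductase, from 206.18, 217.61 and 225.62 to 51.57, 54.58 and 60.43 (-1.96 ± 0.06). The 1 gene called higher was Top1, a topoisomerase that also serves transcription, named here after its values were seen: it rose from 46.97, 44.04 and 51.07 to 104.17, 116.51 and 115.36 FPKM (1.24 ± 0.07), and on the common FPKM sum by 0.83. None of the 45 was called with either inhibitor against TCR alone, and 0 passed 2-fold unadjusted. Few genes of the whole table were called: 1.38% lower and 0.499% higher with PI3Kdi, and 2.51% and 0.980% with MEKi. At any size 16 of the 45 were higher and 1 lower with PI3Kdi, beside 12.7% and 12.8% of all genes. With MEKi 22 were higher and 4 lower, beside 18.9% and 18.2%.

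A list of E2F partners, which also holds the E2F factors E2f4, E2f5 and E2f6, was less uniform. Of its 13 genes 4 were called lower and 0 higher after triggering (median -0.65), beside 11.1% and 8.87% of all genes. At any size 9 were lower and 1 higher, beside 34.9% and 33.6% of all genes. The 1 higher gene was the E2F factor E2f5. Rbl1, a pocket protein that holds E2F targets in check, fell from 16.25, 16.46 and 15.60 to 4.01, 4.97 and 5.05 FPKM (-1.77 ± 0.11). Rb1, the retinoblastoma gene of the same family, fell from 11.96, 11.84 and 12.88 to 4.32, 5.64 and 5.40 (-1.25 ± 0.10). Mybl2, an E2F target that drives later cell cycle genes, fell from 17.20, 19.51 and 17.11 to 5.76, 6.04 and 7.16 (-1.49 ± 0.09). It lay at 6.72, 6.46 and 6.23 with PI3Kdi (0.04 against TCR alone) and at 10.35, 9.80 and 11.35 with MEKi (0.73). Rbl1 and Rb1 were higher with both inhibitors, by 0.51 and 0.56 with PI3Kdi and by 0.61 and 0.50 with MEKi. At any size 5 of the 13 were higher and 1 lower with PI3Kdi, beside 12.7% and 12.8% of all genes. With MEKi 6 were higher and 0 lower, beside 18.9% and 18.2%.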

How the data were processed

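Messenger RNA of 12 CTL cultures was sequenced with a stranded poly(A) kit. The deposited values are FPKM with 2 decimals, which the authors computed from reads aligned to mm10 and scaled by TMM. The submitters' processing notes name STAR 2.4.2a, Subread 1.5.0 and edgeR, and the use of strand in counting is not given in the sources used here. Whole reads were not recovered, so depths are approximate and count tests were not run. At the depths used, 45 to 61.4% of low values lay within 0.15 of a whole read. Each depth was chosen to bring these same values nearest to whole reads. The 30% of evenly spread values is therefore no measure of chance here, and the depths were not tested.

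Groups came from the sample labels. limma 3.58.1 (R 4.3.3) with an intensity trend was fitted to log2(FPKM + 0.1) of all 11022 genes and 12 samples with 1 mean per group, and 6 comparisons were adjusted by Benjamini-Hochberg over all genes. The script was tested on simulated data. Fold changes on this scale understate those of low genes, and p-values measure the spread between cultures. The members and lists were chosen with earlier results of these data known. Described in full were the E2F genes, the 2 members with the largest and the 1 with the smallest TCR change per role, members called with an inhibitor, the 3 highest and 3 lowest by mean FPKM, and the 3 largest changes of each further list, of which some are not reported here; a few others are given by mean ± SD or by their change, and were named after their values were seen. Shared sequence is the percentage of 100-base stretches of GENCODE exons found in another gene. Between samples of equal replicate number, deviations from group means over 9899 genes correlated at 0.451, 0.376 and 0.239 in PI3Kdi against TCR. The correlations were 0.153, 0.122 and 0.182 in MEKi against TCR, and 0.137, 0.147 and 0.149 in MEKi against PI3Kdi. Against unstimulated they were 0.117, 0.140 and 0.147 for MEKi, 0.105, 0.153 and 0.004 for TCR, and 0.009, 0.114 and -0.062 for PI3Kdi. Samples of unequal number were not compared, so whether equal numbers mark the same mouse was not tested. Alternatives were 2 other pseudocounts, a filter at a mean FPKM of 1, a common FPKM sum, quantile normalisation, the replicate block, the compared groups alone, no intensity trend and leaving out each sample.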

Additional observations from a re-analysis of the deposited data

How the results depend on the processing

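The counts of called genes for TCR against unstimulated (38 to 41 when each sample was left out), PI3Kdi against unstimulated (26 to 30) and MEKi against unstimulated (18 to 22) kept within 1.5 times their values. With the replicate number as a block the called counts were 40, 0, 1, 0, 28 and 20 in the 6 comparisons, and no member's call was lost or gained. A pseudocount of 1 moved the median log2 changes to -1.10 for TCR, -0.95 for PI3Kdi and -0.76 for MEKi against unstimulated, and left 0 genes called for MEKi against TCR, where a pseudocount of 0.01 gave 2 and the common FPKM sum 4. On the common FPKM sum the medians were -1.61 for TCR, -1.24 for PI3Kdi and -0.97 for MEKi against unstimulated, 0.36 for PI3Kdi and 0.59 for MEKi against TCR and 0.22 for MEKi against PI3Kdi. Genes changed at any size then numbered 44 for PI3Kdi against TCR and 26 for MEKi against PI3Kdi, as that scale moves the median of all genes by -0.41, 0.19, 0.26, 0.07, -0.22 and -0.15 in the 6 comparisons. Over all genes it gave 107 lower and 119 higher calls in place of 152 and 55 for PI3Kdi against TCR, 202 and 323 in place of 277 and 108 for MEKi against TCR, 1272 and 623 in place of 819 and 789 for PI3Kdi against unstimulated, and 1003 and 660 in place of 712 and 766 for MEKi against unstimulated. A pseudocount of 1 gave 718 lower and 687 higher calls for TCR against unstimulated, 73 and 17 for PI3Kdi and 172 and 29 for MEKi against TCR, 97 and 53 for MEKi against PI3Kdi, and 466 and 513 for PI3Kdi and 384 and 489 for MEKi against unstimulated. The sign turned on the common FPKM sum for Orc2 (0.12), Rpa3 (0.13) and Timeless (0.12) with PI3Kdi and for E2f3 (0.22), Orc2 (0.16), Pold2 (0.25) and Rpa3 (0.10) with MEKi. After quantile normalisation it turned for E2f3 (-0.02), Rpa3 (0.01) and Chek1 (-0.03) with PI3Kdi and for Pold2 (0.06) with MEKi. Leaving out 1 sample gave medians of 0.16 to 0.21 for PI3Kdi against TCR, 0.10 to 0.16 for MEKi against PI3Kdi and -1.02 to -0.98 for PI3Kdi against unstimulated. The genes called for MEKi against TCR were then 0 to 3: 0 without TCR + MEKi replicate 3, 3 without TCR replicate 3, and 2 without TCR replicate 1, TCR replicate 2 or TCR + MEKi replicate 2. Ranges that crossed 0 were those of E2f3 (0.00 to 0.10), Chek1 (-0.08 to 0.18) and Brca2 (-0.04 to 0.40) with PI3Kdi, and of E2f3 (-0.06 to 0.02), Pold2 (-0.06 to 0.10), Pcna (-0.01 to 0.04) and Tipin (-0.03 to 0.10) with MEKi. Apart from what the settings' own construction shows, the cause was not tested. The least covered genes, E2f2, E2f7 and Gins3, rest on about 50, 71 and 71 fragments in their lowest library, which limits their precision.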

Other observations

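Genes of fork repair and the Fanconi pathway outside the 56 also fell after TCR triggering. Of 25 listed, 24 were in the table, at a median log2 change of -0.76. Of these 9 were called lower and 0 higher, beside 11.1% and 8.87% of all genes. At any size 20 were lower and 2 higher, beside 34.9% and 33.6% of all genes. Fanci, a gene of the Fanconi pathway, went from 7.50, 7.45 and 6.80 to 1.73, 2.09 and 1.92 FPKM (-1.87 ± 0.11). None of the 24 was called by limma with either inhibitor against TCR alone (0 past 2-fold unadjusted). Of all genes 1.38% were called lower and 0.499% higher with PI3Kdi, and 2.51% and 0.980% with MEKi, so few calls would be looked for among 24.

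Other promoter words were counted in the same windows on both strands. CCAAT was present in 63.0% of the 46 genes with a sequence and in 43.4% of other genes of the table, and TTTGAA in 23.9% and 14.2%. Over all 27025 genes with a promoter sequence the shares were 41.1% for CCAAT and 20.2% for TTTGAA. GGCGGGAA or GGCGCGAA was present in 34.8% of the 46 genes, in 6.08% of other genes of the table and in 3.1% of all 27025.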
